A study of Mus musculus with 10 samples.

Results

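The matrix (Mx), the epithelial cells of the hair bulb that divide and then form the hair shaft and its channel, was compared with all other populations sorted from the mouse hair follicle and dermis at postnatal day 4 (P4). Its members were the arrays whose titles carry the population name Matrix, 2 of the 10 arrays of the study. The others were 2 arrays each of outer root sheath (ORS), dermal fraction (DF), dermal papilla (DP) and melanocytes (Mc). All mice carried 2 transgenes, K14-H2BGFP, a green histone driven by the promoter of the basal keratin K14, and Lef1-RFP, a red reporter driven by the Lef1 promoter. The gate for Mx took cells with low GFP and no RFP. ORS cells were GFP-high and RFP-negative, and DF cells were negative for GFP, RFP, CD34, CD45 and CD117. DP cells were RFP-high and negative for GFP and the same surface proteins, and Mc were RFP-high and positive for CD117. Each preparation pooled 5 backskins, and the sex of the mice is not given in the sources used here. Mx is thus defined by its gate, applied after the epidermis had been taken off and after straining had removed hair shafts with the differentiated cells attached to them. Each population was purified and hybridized 2 times, and p-values measure the spread between these arrays.

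In the growing follicle, Mx cells lie around the DP and receive Wnt, Bmp, Fgf and Hedgehog signals. As they move upward they leave the cell cycle and form concentric layers. The innermost layers become the medulla, cortex and cuticle of the hair shaft, filled with hair keratins and keratin-associated proteins. The layers around them become the inner root sheath (IRS), with its own keratins and the matrix protein trichohyalin, and the companion layer. The ORS outside them keeps the keratins and the hemidesmosomes of basal epidermis.

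Values are signals, in array units scaled by the authors, and each gene is given by its brightest probe-set. Differences are on the log2(signal + 50) scale, on which dim genes appear to differ less than they do, and their standard errors (SE) and adjusted p-values come from limma fitted to all 10 arrays. The difference from the rest is the mean of the 2 Mx arrays minus the mean of the 4 other population means. A gene was called when it differed by at least 2-fold with an adjusted p under 0.05. The Mx arrays were the dimmest in median signal, 49.9 and 60, against 60.1 to 90.9 on the others, and 5018 and 5838 of their probe-sets reached a signal of 200, against 5582 to 6650. Their 3' to 5' signal ratios of actin, a sign of RNA integrity, were 2.09 and 1.73, against 1.22 to 1.47. The same ratios of Gapdh, 1.02 and 1.16, lay within the 0.795 to 1.19 of the other arrays. The median difference of all tested probe-sets was -0.13, and it was 0.00 after quantile normalization, so a difference of a list is read against that shift. In cell populations a lower signal from fewer cells of a type and from less RNA per cell cannot be told apart.

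S100a3, Mt4, Selenbp1 and Krt35, genes of hair-forming cells, were each highest in Mx on both arrays, but they lead the ranking of genes highest in Mx and were chosen with these values known, so this is a description and no check of the label. Summed signals of genes of other cells were lower in Mx than in those cells. The summed signal of 18 melanocyte genes was 1961 and 2859 on the Mx arrays, against 1022 and 1462 in ORS, 7025 to 34464 in DF and DP, and 55788 and 62333 in Mc. That of 14 endothelial genes was 387 and 354, against 6801 and 5813 in DF, and 6 red cell genes summed to 98.6 and 84.5, against 4277 and 5240 in DF. None of the endothelial, red cell, immune cell or skeletal muscle genes reached 200 on both Mx arrays, but 2 melanocyte genes and 1 each of the adipocyte, Schwann cell, pericyte and DP lists did. Fabp4, a fatty acid carrier of adipocytes and endothelium, had 385 and 342 in Mx, 102 and 102 in ORS and 1192 and 1770 in DF. Gpnmb, a melanosomal glycoprotein named after its values were seen, had 878 and 1468 in Mx, 50.9 and 117 in ORS and 2566 and 4183 in Mc. Their part in the Mx profile was not tested. The 24 fibroblast genes summed to 7902 and 7038, of which 4725 and 3052 came from the proteoglycan gene Dcn alone.

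Of 8054 probe-sets that reached 200 on both arrays of some population, 448 (5.56%, 328 genes) were higher in Mx than the mean of the other 4 populations and 1231 (15.3%, 868 genes) were lower. A stricter rule asked for 2-fold and an adjusted p under 0.05 against each of the 4. By it 92 probe-sets of 72 genes (1.14%) were highest in Mx of the 5 populations, and 170 of 121 genes (2.11%) were lowest. Under the deposited scaling no other epithelial or dermal population had as many lowest probe-sets: ORS had 9, DF 5 and DP 5, whereas Mc had 157. The population next below Mx was ORS for 54 of the 92 highest probe-sets, DF for 21, DP for 13 and Mc for 4. The population next above Mx was ORS for 76 of the 170 lowest, Mc for 58, DP for 23 and DF for 13. Without Mx replicate 2 there were 752 higher and 183 highest probe-sets, of which 71 were among the 92. With a pseudocount of 16 in place of 50, 279 probe-sets were lowest. The counts in Mx also moved with the scaling. After quantile normalization 103 probe-sets were highest and 114 lowest, and after rescaling to one trimmed mean 124 and 140. On the 6 arrays of the chip lot that held both Mx arrays, 54 probe-sets were highest and 80 lowest.

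Upstream sequence is shown for genes that led the highest set, which were selected by their high signal in Mx. By brightest probe-set 69 genes were highest in Mx and 112 lowest, and 54 and 86 of them matched a promoter window of RefSeq (GRCm38), which runs from 250 bases before the start to 50 after it. The windows below are those of the 5 leading highest genes and of the leading lowest gene with a single annotated start, 5' to 3' on the gene's strand. Capitals mark TATAAA (the TATA box), CTTTGA (the core bound by Lef1 and Tcf factors) and TAATTG (a homeodomain core), searched on both strands. They lie at chr8:94136954-94137253 on the plus strand for Mt4, chr3:94932833-94933132 on the plus strand for Selenbp1, chr13:62888233-62888532 on the minus strand for Fbp1, chr11:100050502-100050801 on the minus strand for Krt31, chr16:89487903-89488202 on the minus strand for Krtap8-1 and chr14:45530016-45530315 on the minus strand for Fermt2.
Mt4: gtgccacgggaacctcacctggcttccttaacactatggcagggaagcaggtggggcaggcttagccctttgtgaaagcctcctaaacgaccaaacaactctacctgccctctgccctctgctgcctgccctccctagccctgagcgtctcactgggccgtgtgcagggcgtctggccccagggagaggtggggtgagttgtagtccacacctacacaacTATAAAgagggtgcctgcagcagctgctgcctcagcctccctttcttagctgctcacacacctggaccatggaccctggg
Selenbp1: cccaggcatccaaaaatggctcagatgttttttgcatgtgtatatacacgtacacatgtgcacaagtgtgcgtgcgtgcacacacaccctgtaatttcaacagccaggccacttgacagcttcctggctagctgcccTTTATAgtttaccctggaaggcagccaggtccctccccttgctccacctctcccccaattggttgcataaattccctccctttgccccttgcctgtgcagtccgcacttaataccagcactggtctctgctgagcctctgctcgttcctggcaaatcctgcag
Fbp1: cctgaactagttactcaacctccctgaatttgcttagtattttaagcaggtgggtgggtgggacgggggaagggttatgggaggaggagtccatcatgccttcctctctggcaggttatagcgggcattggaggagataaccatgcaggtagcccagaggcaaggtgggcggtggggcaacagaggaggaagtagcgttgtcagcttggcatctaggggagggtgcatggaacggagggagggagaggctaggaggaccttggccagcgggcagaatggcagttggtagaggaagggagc
Krt31: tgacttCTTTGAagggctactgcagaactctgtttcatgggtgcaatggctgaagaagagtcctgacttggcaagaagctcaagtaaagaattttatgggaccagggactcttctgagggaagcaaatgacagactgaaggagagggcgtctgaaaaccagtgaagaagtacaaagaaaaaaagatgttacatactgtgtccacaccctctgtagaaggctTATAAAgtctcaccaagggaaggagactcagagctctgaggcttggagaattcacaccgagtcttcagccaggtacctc
Krtap8-1: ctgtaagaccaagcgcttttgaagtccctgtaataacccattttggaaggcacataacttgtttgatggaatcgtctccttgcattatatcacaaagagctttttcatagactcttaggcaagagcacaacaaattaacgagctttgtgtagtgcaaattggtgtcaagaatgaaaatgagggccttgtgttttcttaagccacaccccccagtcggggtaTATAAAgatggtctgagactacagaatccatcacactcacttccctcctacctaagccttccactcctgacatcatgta
Fermt2: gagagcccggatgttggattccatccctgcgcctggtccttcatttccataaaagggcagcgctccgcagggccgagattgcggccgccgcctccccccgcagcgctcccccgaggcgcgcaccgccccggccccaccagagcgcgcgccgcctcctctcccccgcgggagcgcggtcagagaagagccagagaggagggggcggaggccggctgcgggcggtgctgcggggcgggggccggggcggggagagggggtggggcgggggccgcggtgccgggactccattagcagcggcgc

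TATAAA stood at position -30 in the window of Mt4 and at -29 in those of Krt31 and Krtap8-1, where -1 is the base before the start. In Selenbp1 it lay at -113 on the opposite strand. Krt31 also had CTTTGA at -244. Neither the window of Fbp1 nor that of Fermt2 held any of the motifs. Of the 54 genes highest in Mx with a window, 18 (33.3%) held TATAAA, against 11.9% of 9887 genes on the array with a window and 5 (5.81%) of the 86 lowest in Mx. On the gene's own strand and with its first base 35 to 25 bases before the start, it was present in 7 of the highest genes (13%), in none of the lowest, and in 2.85% of the genes on the array. CTTTGA was found in 14.8% of the highest, 15.1% of the lowest and 15.6% of all, and TAATTG in 5 (9.26%), 1 (1.16%) and 6.29%. Over all 32851 windows of the table, TATAAA was found in 13.6%, CTTTGA in 16% and TAATTG in 8%. These shares are a description of letters in a window.

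Some of the highest genes were neighbours in the genome. Of 68 highest genes placed among the protein-coding genes of RefSeq, 18 (26.5%) lay within 5 genes of another, in 7 runs. The runs held the hair keratin genes Krt31, Krt33a, Krt35 and Krt36 on chromosome 11, the sheath keratins Krt25 and Krt27 with Krt23 on the same chromosome, and Krt71, Krt75 and Krt83 on chromosome 15. Of 111 lowest genes 8 (7.21%) lay in such runs, none longer than 2 genes. Among all genes called higher 58 of 288 (20.1%) lay in runs, and among all called lower 311 of 823 (37.8%), so the order of the shares was not the same for called genes, and sets of unequal size are not comparable by it. Probe-sets of near-identical keratins can read each other's transcripts, so the values of single hair keratins are less certain than those of the group.

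The summed signal of hair shaft genes was far above that of every other population on both Mx arrays. Of 15 hair shaft keratins and cuticle genes on the array 9 were higher in Mx than the rest and none lower, with 5 under the signal bound, where 2.36% of all 12393 genes were called higher. Their median difference was 1.54, against -0.12 over all genes, and 8 of the 15 were highest of the 5 populations. The list holds the markers S100a3, Mt4, Selenbp1 and Krt35, which were chosen with these values known. They are among the 9 and the 8 and are part of the sums below, so these figures are a description only. Their summed signal was 19888 and 20109 on the Mx arrays. It was 1086 in ORS replicate 1 but 4203 in ORS replicate 2, and 1461 in DF replicate 1 but 6529 in DF replicate 2. The second ORS and DF arrays therefore stood between Mx and their own replicates for these genes, and the part of this in the differences below was not tested.

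S100a3, which encodes a cuticle protein that binds calcium and zinc, had the widest margin. Its signal was 4024 and 2099 on the Mx arrays, 125 and 356 in ORS, 75.3 and 518 in DF, 270 and 286 in DP, and 105 and 110 in Mc. Mx replicate 1 was well above replicate 2, yet both lay far above the brightest other array, DF replicate 2. The difference from the rest was 3.59 ± 0.44 (SE, adjusted p = 2.518e-05), and that from DP, the next population, was 3.18. Mt4, a metallothionein of stratified epithelia, stood at 3255 and 2345 in Mx, 93.9 and 331 in ORS, 118 and 591 in DF, 151 and 200 in DP, and 72.9 and 58.3 in Mc. Selenbp1, a selenium-binding protein, was the gene furthest above the mean of the rest, by 3.82 ± 0.32 (adjusted p = 1.402e-06). It reached 1459 and 2464 in Mx, with DF replicate 2 next at 352 and Mc at 18.1 and 7.4. The order of the Mx replicates differed among the 3 genes, with replicate 1 higher for S100a3 and Mt4 and replicate 2 for Selenbp1.

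**Figure D1:**
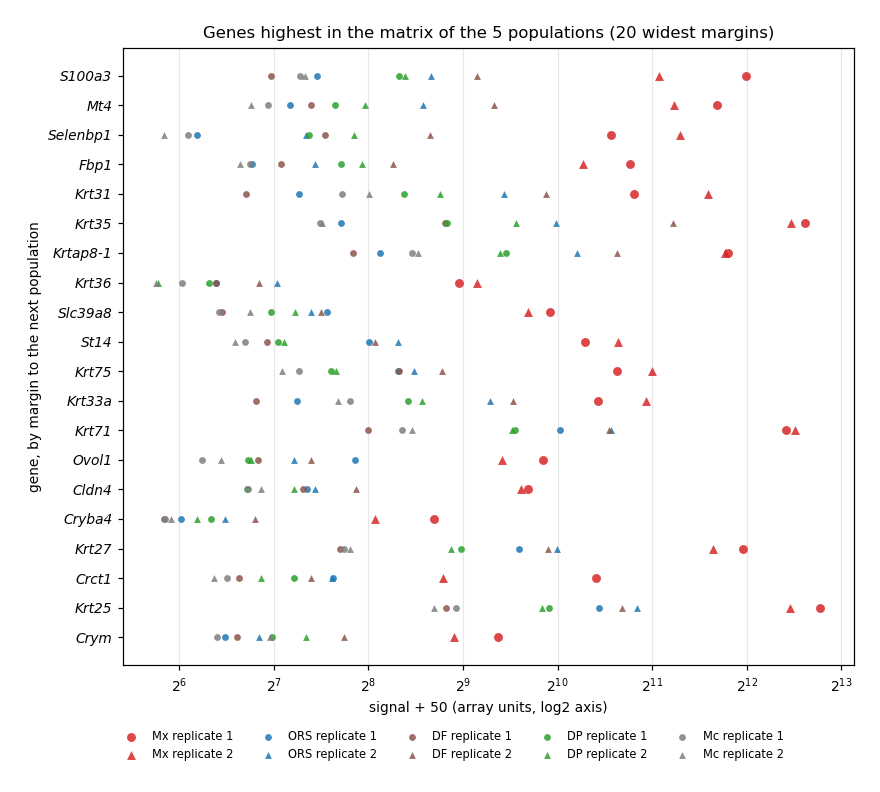
Signal + 50 (log2 axis, array units) of the 20 genes with the widest margin above the next population, one row a gene, with a point for each of the 10 arrays (circles, replicate 1, triangles, replicate 2, colours, populations). Both Mx points (red) lie to the right of all 8 others in every row, by which the genes were chosen, and the DF and ORS triangles are often next.

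Among the hair keratins, Krt35, a type I keratin of the early cortex and cuticle, differed most from the rest. It stood at 6239 and 5596 in Mx, 160 and 959 in ORS, 398 and 2338 in DF, 406 and 706 in DP, and 129 and 132 in Mc, and differed from the rest by 3.65 ± 0.55 (adjusted p = 1.342e-04). Krt31 (1749 and 3044), Krt33a (1327 and 1901) and Krt36 (448 and 516), type I hair keratins as well, also had both Mx arrays above all others. The margin was least secure for Krt33a and Krt31, whose largest adjusted p against a single population was 0.03081 and 0.02562. Krt36 was at most 81.4 elsewhere, and its largest was 3.677e-05. Of 26 keratin-associated protein genes, which encode the cross-linked matrix of the hair shaft, 23 stayed under the signal bound and all 3 tested were higher in Mx. Krtap8-1, a glycine-tyrosine-rich member, stood at 3526 and 3432, with ORS at 228 and 1133 and DF at 178 and 1528. Krtap13-1 reached 453.5 and 463 and Krtap15 269 and 429, the latter not past the threshold without Mx replicate 2 (0.80, adjusted p = 0.115).

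Genes of the IRS were raised as widely. Of 11 on the array 6 were higher in Mx, the other 5 were under the signal bound, and the median difference was 2.01. Among the sheath keratins, Krt71 had 5403 and 5774 in Mx, 996 and 1462 in ORS, 205 and 1445 in DF, 697 and 684 in DP, and 277 and 303 in Mc. Krt25 had 6978 and 5564 and Krt27 3944 and 3150 in Mx, with ORS next at 1336 and 1789 for Krt25 and 724 and 967 for Krt27. All 3 were 2-fold above ORS with adjusted p-values of 0.0141 (Krt71), 0.005031 (Krt25) and 0.01036 (Krt27). Padi3, a deiminase that modifies trichohyalin, stood at 681 and 1459 in Mx, so its replicates were over 2-fold apart, and ORS had 215 and 378. In the companion layer, Krt75 reached 1536 and 1988 in Mx against 268 and 308 in ORS and 271 and 388 in DF, and was highest in Mx (2.87 ± 0.16, adjusted p = 1.380e-07). Krt17, a keratin of the ORS and companion layer, was above the rest by 2.41 but lay below ORS, at 2056 and 1576 against 3336 and 3485 (adjusted p = 0.03144).

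Transcription factors of the hair bulb were widely higher in Mx. Of 19 on the array 11 were higher and none lower, 4 were tested and not called, and 8 were highest of the 5 populations. Their median difference was 1.05. Ovol1, a zinc finger factor that restrains growth of epithelial progenitors, stood at 869 and 631 in Mx, 182 and 98 in ORS, 63.7 and 118 in DF, 56 and 58.2 in DP, and 25.8 and 36.7 in Mc (2.70 ± 0.20, adjusted p = 6.600e-07). The homeodomain factor Msx2 had 1184 and 1024 in Mx and 414 and 230 in ORS, with 90.9 to 284 in DF and DP. Its relative Msx1 had 906 and 697 in Mx and 347 and 213 in ORS. Both Mx arrays were above all others for these 3 factors.

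Dlx3, a homeodomain factor needed for hair formation, had 757 and 1219 in Mx, 259 and 360 in ORS and at most 129 in the other populations. Grhl1, a grainyhead factor of desmosomal genes, had 715 and 955 against 286 and 259 in ORS. Foxq1, a forkhead factor of the medulla, had 219 and 385 in Mx and at most 90.6 on the other 8 arrays. Hoxc13, the homeodomain factor of hair keratin genes, had 485.5 and 783 against 236 and 315 in ORS, and its call over ORS was close to the threshold (adjusted p = 0.04812). Gmcl1, a nuclear envelope protein, had 871 and 937 against 401 and 371. Most of these factors were next highest in ORS, whereas Foxq1 was as low in ORS as in the dermal populations.

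Other bulb factors were not particular to Mx. Dlx2 had 576 and 497 in Mx and 472.5 and 215 in ORS, and the difference from ORS did not pass the test (adjusted p = 0.1478). Cux1 (550 and 990 in Mx, 794 and 642 in ORS) and Hr (333.5 and 719 in Mx, 427 and 749 in ORS), a corepressor whose loss gives hairless mice, were higher than the rest but overlapped with ORS, and Hr missed the threshold without Mx replicate 2 (0.55, adjusted p = 0.0884). Trps1, a GATA-type repressor, had 238 and 616 in Mx and 2581 and 3089 in DP. Prdm1, a repressor of the SET family, had 79.2 and 160 in Mx and 583 and 658 in DP. Neither differed from the rest by the test, and both hung on the replicate. Trps1 stood at -0.68 (adjusted p = 0.0317) without Mx replicate 2 and at 0.53 (adjusted p = 0.0962) without replicate 1, and Prdm1 at -0.71 (adjusted p = 0.0229) and -0.01 (adjusted p = 0.978). Tfap2a (384 and 708) and Tfap2c (163 and 246) were not called, and Tfap2a was as high in Mc, at 811 and 755. Lef1, the Wnt effector whose promoter drives the red reporter, had 106.5 and 269 in Mx, 101 and 103 in DP and 138 and 124 in Mc, and was not tested because no population reached the bound on both arrays. Foxn1, the nude factor, reached 89.3 and 147 in Mx, Dlx1 82 and 63.8, and Ovol2 26.8 and 35.2, so these stayed under the bound as well.

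Secreted signals were mostly weak on the array. Of 20 ligand genes of the matrix 12 were under the signal bound, 2 were higher in Mx and none lower, with 5 higher without Mx replicate 1 or with a pseudocount of 16. Kitl, the ligand of the melanocyte receptor Kit, had 914 and 1056 in Mx, 265 and 166 in ORS, 675.5 and 902 in DF, 83.1 and 129 in DP, and 36.1 and 85.2 in Mc. It was higher than ORS (adjusted p = 1.577e-04), while the difference from DF was 0.31 and did not pass (adjusted p = 0.3403). Wnt10a had 342 and 332 in Mx against 165 and 260 in ORS and 43.7 to 95.9 in the other populations (1.38 ± 0.18, adjusted p = 3.564e-05). Bmp2 had 205 and 120 in Mx and at most 36.1 in ORS, DP and Mc, but DF replicate 2 reached 129, and it was not tested because Mx replicate 2 was under the bound.

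Receptor and feedback genes moved less. Of 22, 3 were higher and 1 lower, and 1 was higher without Mx replicate 1. Notch1, a receptor of cell fate choice in the hair bulb, was highest in Mx, at 1856 and 2453 against 947 and 1038 in ORS, 767 and 688 in DF, 232 and 244 in DP, and 121 and 134 in Mc (2.28 ± 0.15, adjusted p = 2.569e-07). Another tested probe-set of it, with a difference of 1.11, was not highest. The Bmp-responsive inhibitors Id1 (2548 and 935) and Id3 (3488 and 1684) were higher than the rest, with Mx replicates over 2-fold apart, and Id3 lost its adjusted p under 0.05 without Mx replicate 1 (0.59, adjusted p = 0.0637). Hey1, a Notch target, was lower, at 8.6 and 9.5 in Mx and 10.6 and 10 in ORS against 416 and 303 in DP.

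Several of the 20 leading genes were not on the lists. St14, a membrane serine protease (matriptase), had 1198 and 1547 in Mx, 206.5 and 268 in ORS, 71.5 and 219 in DF, 82.2 and 87.8 in DP, and 53.2 and 46.5 in Mc (3.12 ± 0.24, adjusted p = 6.842e-07). Fbp1, a gluconeogenic enzyme, had 1687 and 1182 in Mx and at most 257 elsewhere. Slc39a8, a zinc and manganese importer, had 916 and 774 and at most 140 elsewhere. Both Mx arrays were thus at least 4 times above the brightest other array for these 3 genes. Crym (611 and 430), a thyroid hormone-binding protein, and Cryba4 (363.5 and 218), a crystallin, also had both Mx arrays above all others. Crct1, a gene of the epidermal differentiation complex, had 1311 and 392 in Mx, more than 2-fold apart, with ORS at 147 and 146.

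Of 12 desmosome genes 8 were higher, with a median difference of 1.44 from the rest but 0.22 from ORS. Pkp1, a plakophilin, had 1245 and 1986 in Mx and 1042 and 1672 in ORS, against 20.2 to 435.5 on the other 6 arrays. Dsp, desmoplakin, had 3363 and 3145 in Mx and 2783 and 2818 in ORS, and Perp, a desmosomal membrane protein, 3138 and 3064 against 2626 and 2632. None of the 3 passed the test against ORS (adjusted p between 0.7083 and 0.7535). Sfn, the keratinocyte 14-3-3 protein, and Dmkn, dermokine, were among the 10 genes furthest above the rest and likewise did not differ from ORS by the test (adjusted p = 0.4985 and 0.5955). Of 13 tight junction and epithelial adhesion genes 5 were higher, and 8 with a signal bound of 100. Cldn4, a claudin, was the member highest in Mx, at 774 and 733 against 113 and 123 in ORS, whereas Epcam had 742 and 885 against 1112 and 909.

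Of 17 basal keratinocyte and hemidesmosome genes 3 were higher than the rest and 3 lower, and the median difference was 0.03 from the rest and -1.49 from ORS. Krt5 and Krt14, the basal keratin pair, had 2111 and 2634 and 1588 and 1757 in Mx, below ORS (5605 and 7679, 4932 and 6500) and above all other arrays. Krt15 had 139 and 266 in Mx against 5034 and 6261 in ORS. Trp63, the master factor of stratified epithelia, had 1058 and 1181 against 2326 and 1926 in ORS (adjusted p = 0.02534). Dst, the gene of the hemidesmosomal plakin BPAG1, was lowest in Mx by its brightest probe-set (18.1 and 29.1 against 108 and 140 in ORS and 490.5 to 1302 elsewhere), while other tested probe-sets of it differed from the rest by as little as -0.05. All 17 members were brighter on Mx replicate 2 than on replicate 1, and most were also brighter on the second array of each other pair.

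**Figure D2:**
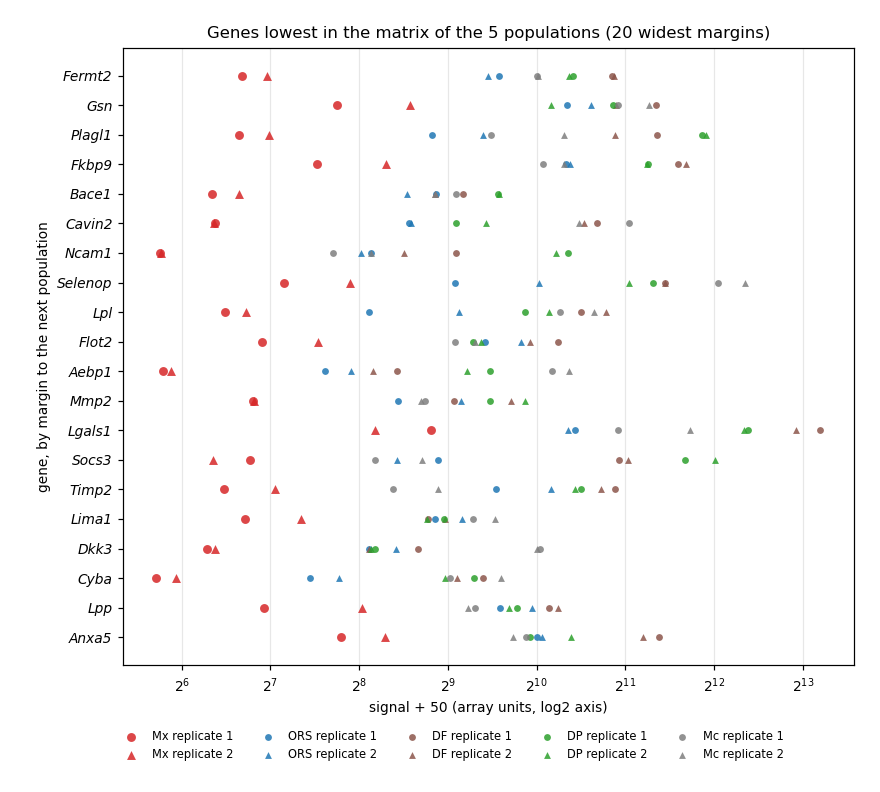
Signal + 50 (log2 axis, array units) of the 20 genes with the widest margin below the next population, drawn as for the highest genes. Both Mx points (red) lie to the left of all 8 others in every row, by which the genes were chosen, and those of Cavin2, Ncam1, Aebp1, Dkk3 and Cyba stand within 50 units of a signal of 0.

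The genes lowest in Mx had higher signals in all 4 other populations, ORS among them. Fermt2, kindlin-2, an activator of integrins at focal adhesions, had the widest margin. It stood at 52.4 and 74.6 in Mx, 710 and 652 in ORS, 1797 and 1829 in DF, 1308 and 1269 in DP, and 978 and 987 in Mc, a difference from the rest of -3.37 ± 0.14 (adjusted p = 5.538e-08). The actin regulators Gsn (gelsolin) and Lima1 were lowest as well, Gsn at 165 and 330 against 1098 to 2545 and Lima1 at 54.6 and 112 against 386 to 687. Lpp, a zyxin relative of focal adhesions, had 71.9 and 212 in Mx, over 2-fold apart, and 550 to 1160 elsewhere. Flot2, a flotillin, had 70.1 and 135 against 491.5 to 1156, but another tested probe-set of it, with a difference of -0.98, was not lowest. Cavin2, a coat protein of caveolae, had 33.3 and 32.2 against 328 and 333 in ORS and up to 2052 in Mc.

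Others of the 20 encode surface or secreted proteins. Ncam1, a neural cell adhesion molecule also used by DP, had 3.8 and 4.3 in Mx, 231 and 210 in ORS, 496 and 313.5 in DF, 1260 and 1142 in DP, and 158 and 230 in Mc. Mmp2, a gelatinase, had 61.3 and 62.3 against 297 to 887, and its inhibitor Timp2 39 and 82.1 against 282 to 1844. Lgals1, galectin-1, had 400 and 241 against 1255 to 9344. Aebp1, a collagen-binding protein, was at 5.2 and 8.9 and Dkk3, a secreted Dickkopf relative, at 28.2 and 33.2, against at least 146 and 227 on the other arrays. Lpl, lipoprotein lipase, had 39.8 and 55.9 against 227 to 1712. Bace1, the beta-secretase, had 30.8 and 50.4 against 323 to 714.

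Regulators and enzymes were found there too. Plagl1, an imprinted zinc finger factor, had 50.3 and 76.6 in Mx, 400 and 626 in ORS, 2571 and 1834 in DF, 3666 and 3802 in DP, and 669 and 1221 in Mc (-3.69 ± 0.23, adjusted p = 1.803e-07). Socs3, the feedback inhibitor of cytokine signaling, had 59.4 and 31.6 against 239 to 4063. Selenop, the plasma selenoprotein, had 91.8 and 188 against 493 to 5161, and Fkbp9, a prolyl isomerase, 134 and 266 against 1029 to 3232. Cyba, a subunit of NADPH oxidase, had 2.5 and 11.1 against 125 to 727, and Anxa5, annexin A5, 171 and 263 against 804 to 2618. All 69 lowest genes with more than 1 tested probe-set had every tested probe-set below the rest, and for 26 of them every one was lowest. Of 15 such highest genes 14 had all above the rest, the exception being Rpl22, and 4 had all highest.

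Genes of other lineages were also among those lower than the rest, where 6.7% of all genes on the array were called lower. Of 18 melanocyte genes 16 were lower, of 24 fibroblast genes 17, of 21 DP genes 14 and of 12 pericyte and smooth muscle genes 9. The first 3 lists mark populations that are part of the rest. Median differences from ORS were 0.01 for melanocyte, -0.36 for fibroblast, -0.08 for DP and -1.04 for pericyte genes. Of all 4 lists, 2 fibroblast genes and 1 DP gene were lowest of the 5 populations. Tyrp1, an enzyme of melanin synthesis, had 22 and 76.7 in Mx and 26.4 and 83.5 in ORS, against 4192 and 2503 in DP and 3919 and 4940 in Mc, and Pmel, the melanosome fibre protein, 111 and 245 in Mx and 86.7 and 253 in ORS. Both Mx and ORS had more of them on replicate 2. Sparc, an extracellular matrix glycoprotein, was the gene called furthest below the rest, -3.90 ± 0.24 (adjusted p = 1.803e-07), at 129 and 176 in Mx, 341 and 638 in ORS and 10997 and 11153 in DF. Vim, the mesenchymal filament protein, had 196 and 178 in Mx and 246 and 211.5 in ORS. Myl9, a myosin light chain of contractile cells, had 37.5 and 32 in Mx but 1102 and 1114 in ORS. Dcn was the exception among fibroblast genes. It was highest in Mx (4725 and 3052), with ORS at 1766 and 890, DF at 1326 and 1914, DP at 529 and 636 and Mc at 279 and 216 (2.27 ± 0.24, adjusted p = 8.444e-06), and rests on a single probe-set.

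Lysosomal, antigen presentation and glycolysis genes were called lower in small numbers, with 16, 4 and 13 members tested. Over the array 830 of 5253 tested genes and 15.3% of tested probe-sets were lower. The counts in this paragraph were not tested against that share. Of 17 lysosomal genes 4 were lower (7 without Mx replicate 2), of 11 genes of MHC class I and antigen presentation 2, and of 15 glycolysis genes 3, with none higher in any of these lists. Psap, the precursor of the saposins, was lowest in Mx, at 422 and 789 against 1202 to 1832. B2m, the light chain of MHC class I, was lowest, at 508 and 413 against 973 and 1218 in ORS and 1524 to 2964 elsewhere. Hk1, a hexokinase, was lowest, at 22.6 and 33.9 against 106 to 588. Of 20 immediate early genes 2 were higher (none without Mx replicate 1) and 3 lower, and of 5 Schwann cell genes 2 were lower. One member each was lower among 17 immune cell, 6 adipocyte and 6 red cell genes, the adipocyte one being Lpl, and none of 10 skeletal muscle genes or 4 simple epithelial keratins was called. Of 14 endothelial genes 3 were lower, with summed signals of 387 and 354 in Mx beside 432 and 466 in ORS.

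**Figure D3:**
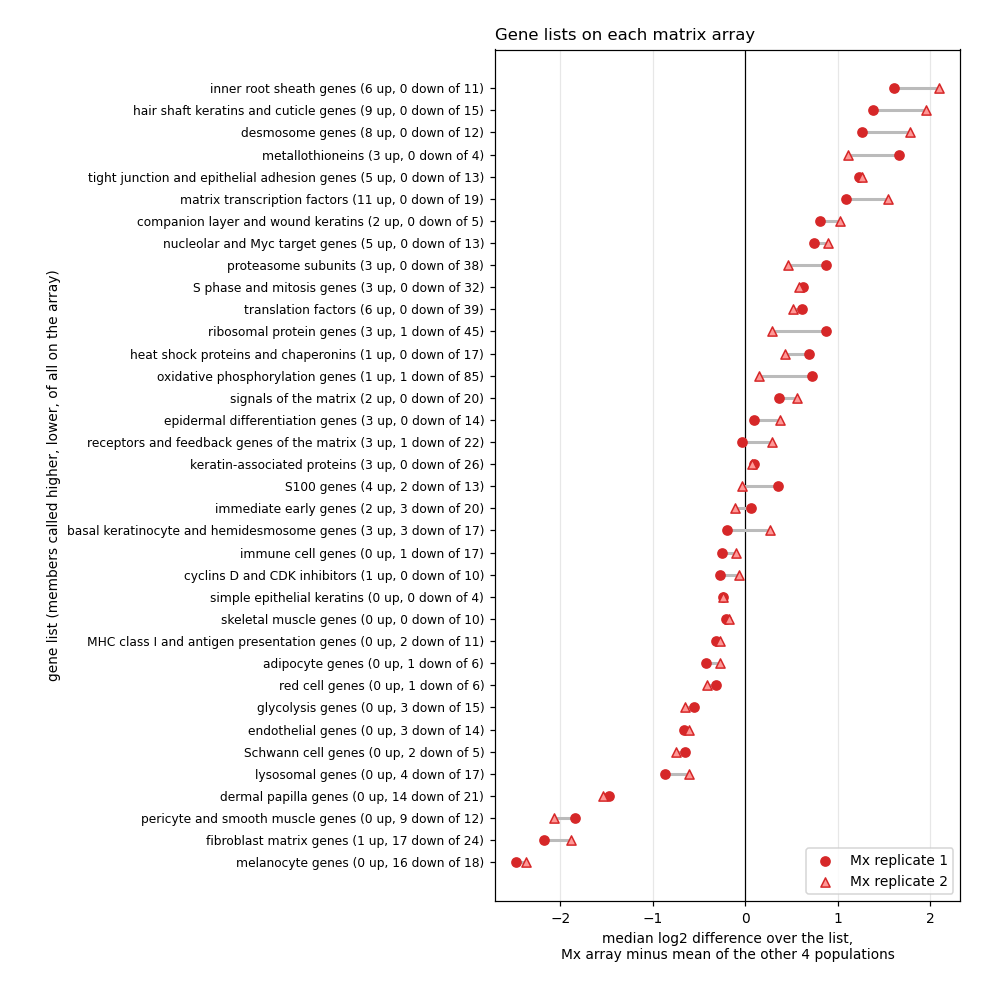
Median log2 difference of each gene list (rows, with its members called higher and lower of all on the array) between a single Mx array and the mean of the other 4 populations, with Mx replicate 1 as circles and replicate 2 as triangles. The hair shaft and inner root sheath lists lie between 1.38 and 2.10 on both arrays and those of melanocytes and fibroblasts between -2.48 and -1.89, while ribosomal protein genes stand at 0.87 on replicate 1 and 0.29 on replicate 2.

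Genes of cell growth are given beside the 2.36% of all genes called higher and the 6.7% called lower. Those shares are over 12393 genes, of which 5253 were tested, 292 of them called higher and 830 lower. Most growth genes were tested, such as 41 of 45 ribosomal protein genes. The nearer measure for them is the 5.56% of tested probe-sets that were higher and the 15.3% that were lower. Of 32 genes of S phase and mitosis 3 were higher and none lower (5 higher without Mx replicate 2), with a median difference of 0.61 from the rest and -0.23 from ORS. Mki67, a protein of cycling cells, had 1396 and 1607 in Mx, 2082 and 1702 in ORS, 929 and 730 in DF, 375 and 334 in DP, and 460 and 424 in Mc. Mcm7, a subunit of the replicative helicase, had 3264 and 2625 against 2964 and 2498 in ORS, and Gmnn, a licensing inhibitor, 570 and 494 against 676 and 452. Among 10 cyclin D and CDK inhibitor genes, whose median difference was -0.19, 1 was higher (2 without Mx replicate 1), Cdkn1a, the inhibitor p21, at 1064 and 1461 in Mx, 453 and 620 in ORS, 607 and 700 in DF, 208 and 212 in DP, and 135 and 108 in Mc (1.82 ± 0.17, adjusted p = 2.703e-06). Ccnd2, a D cyclin, had 2281 and 3647 in Mx and 3975 and 3512 in ORS, and was above the rest by 0.84 (adjusted p = 0.002294), short of 2-fold, while its difference from ORS did not pass (adjusted p = 0.3205). Another probe-set of Ccnd2 was above the rest by 1.08 (adjusted p = 6.537e-04).

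Of 13 nucleolar and Myc target genes 5 were higher and the median difference was 0.90, with 3 higher when chip lot was a block. Fbl, fibrillarin, a methyltransferase of ribosomal RNA, had 1969 and 1813 in Mx, 1269 and 1048 in ORS and 484 to 721 elsewhere, above ORS by 0.69 (adjusted p = 0.01736). Mycn had 341 and 321 in Mx and 372 and 282 in ORS. Of 39 translation factors 6 were higher, led by Eif2b4 (630 and 849 against 349 and 384 in ORS), and of 38 proteasome subunits 3. Of 17 heat shock proteins and chaperonins 1 was higher and of 85 oxidative phosphorylation genes 1 higher and 1 lower. Of 45 ribosomal protein genes 3 were higher and 1 lower. These counts hung on single Mx arrays. Without Mx replicate 2 there were 20 oxidative phosphorylation genes, 16 proteasome subunits, 13 ribosomal protein genes, 9 translation factors and 4 heat shock genes called higher. Without Mx replicate 1 there were 2 ribosomal protein genes, 1 proteasome subunit and 1 translation factor, and none of the other 2 lists. The median difference of the ribosomal protein genes, 0.59, was 0.11 after quantile normalization. Rpl22 differed most, at 6794 and 2566 in Mx and 510 to 1837 elsewhere, but another probe-set of it differed by -0.09 (adjusted p = 0.7454). Rpl39l, a paralog of Rpl39, was at 16 and 2.5 in Mx and 2.8 and 10.6 in ORS against 723 and 788 in DP.

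Of 4 metallothionein genes 3 were higher. Besides Mt4, Mt2 had 8296 and 7116 in Mx and Mt1 6357 and 3366, neither of which differed by the test from the next population (adjusted p = 0.121 for Mt2 and 0.4465 for Mt1). Of 13 S100 genes 4 were higher and 2 lower. S100a14 and S100a16 stood at 3255 and 1953 and at 4081 and 2982, with ORS next, while S100a4, a fibroblast member, was at 62.7 and 36.5 in Mx against 1636 and 1079 in DF. Of 14 epidermal differentiation genes 3 were higher, of which Sprr1a, a cornified envelope precursor, was highest in Mx (1446 and 1472 against 409 and 507 in ORS), as was Calml3, a calmodulin-like protein (466 and 682 against 160 and 239.5).

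The Mx arrays agreed least of the 5 replicate pairs under the deposited scaling. Over tested probe-sets the SD of the log2 difference between replicates was 0.45 for Mx, 0.34 for both ORS and DF, and 0.29 for both DP and Mc. In Mx 192 probe-sets (2.38%) were at least 2-fold apart, 74 of them higher in replicate 1 and 118 in replicate 2, against 122 for DF, the next pair, and 63 to 72 for the others. After quantile normalization the Mx count was 89, below the 119 of DF. Among the 69 highest genes 34 were brighter on replicate 1 and 5 were over 2-fold apart, and their median signals were 876 and 955. Among the 112 lowest genes 21 were brighter on replicate 1 and 3 were over 2-fold apart, with median signals of 66.5 and 105. On replicate 1 145 of the 170 lowest probe-sets were at least 2-fold below all 8 other arrays, and on replicate 2 82 were, whereas for the 92 highest these counts were 64 and 68.

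**Figure D4:**
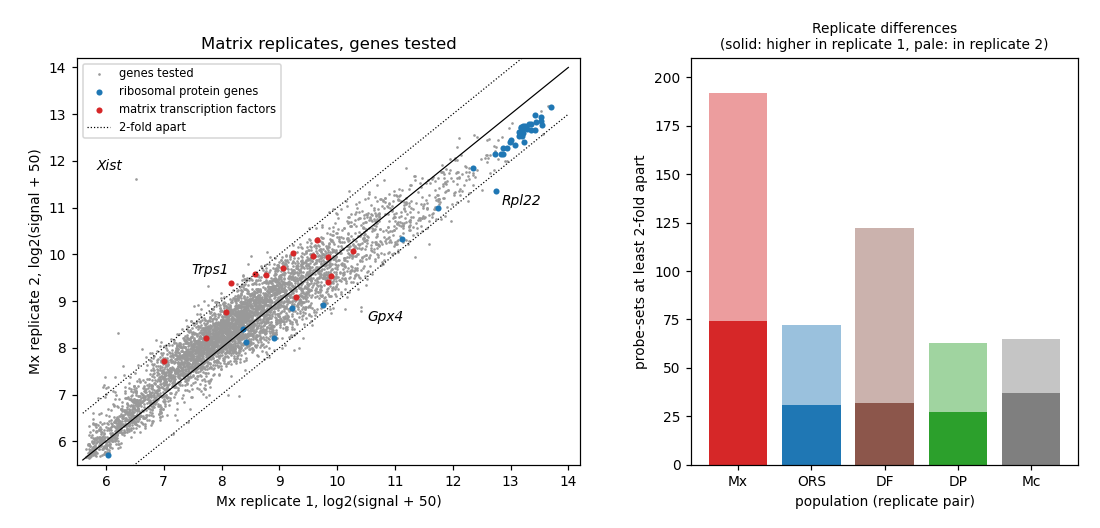
Left, log2(signal + 50) of the tested genes on Mx replicate 1 (horizontal) and replicate 2 (vertical), with the ribosomal protein genes in blue, the matrix transcription factors in red, the line of equality (solid) and 2-fold lines (dotted). Right, probe-sets at least 2-fold apart within each replicate pair, of which Mx has 192, with solid bars for those higher in replicate 1 and pale bars for replicate 2.

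The replicate difference followed gene groups. Ribosomal protein genes were brighter on replicate 1 in 43 of 45 cases, with a median difference of 0.59, and their summed signal was 316285 and 205773, against 135963 to 206879 on the other 8 arrays. Oxidative phosphorylation genes were brighter there in 75 of 85 cases (0.56), proteasome subunits in 30 of 38 (0.44) and S100 genes in 13 of 13 (0.45). After quantile normalization the count was 28 of 45 for ribosomal proteins, with a median of 0.06, but 71 of 85 for oxidative phosphorylation, 28 of 38 for proteasome subunits and 13 of 13 for S100 genes. Matrix transcription factors went the other way, with 14 of 19 brighter on replicate 2 and a median of -0.50, and basal keratinocyte genes did so in 17 of 17 cases. Of all 12393 genes 4627 were brighter on replicate 1, with a median of -0.08, so most genes leaned toward replicate 2 as well. In the other pairs, basal keratinocyte genes brighter on replicate 1 numbered 2 (ORS), 3 (DF), 4 (DP) and 6 (Mc) of 17. For matrix transcription factors these counts were 10, 3, 3 and 4 of 19. The ribosomal protein genes of the other populations had median replicate differences of -0.13 (ORS), -0.08 (DF), 0.11 (DP) and 0.10 (Mc). Mx replicate 1 also had 16.6% of its signal in the 100 brightest probe-sets, against 12.2% for replicate 2 and 9.77% to 12.3% elsewhere, and the part of this in the group differences was not tested.

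Single genes differed more. Xist, the RNA of the inactive X chromosome of females, was at 42.2 on Mx replicate 1 and 3077 on replicate 2. It was at 49.8 and 4867 in ORS, 3514 and 3918 in DF, 4816 and 4247 in DP, and 451 and 445 in Mc. The first Mx and ORS arrays were thus alike in having next to none, while the second arrays had levels near those of DF and DP. Eif2s3y, a Y-linked gene chosen after its values were seen, was at 194 and 88.2 in Mx, 150 and 37.3 in ORS and 50.4 to 121 on the other arrays. Uty (30.3 and 33.9) and Kdm5d (37 and 49.9), also Y-linked and chosen so, did not separate the Mx arrays. Any part of the animals' sex in the other replicate differences was not tested.

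After Xist, the widest differences toward replicate 2 were those of Slc6a6, the taurine transporter (23.7 and 268), Epha1, an ephrin receptor (168 and 586.5), Nfix, a nuclear factor I protein (315 and 950), Itsn1, an endocytic scaffold (13.2 and 115), Plpp3, a lipid phosphatase (134.5 and 427), Pou3f1, a POU factor of keratinocytes (48.9 and 202), and Purb (302 and 836). Toward replicate 1 they were Crct1, Gpx4, a glutathione peroxidase (1314 and 419), Id1, Rpl22, Ndufb2, a complex I subunit (3018 and 1143), Avpi1 (596 and 206), Rgs2, a regulator of G protein signaling (264 and 74.9), and Atp5md, an ATP synthase subunit (1070 and 405). Of these 16 genes, Xist included, Slc6a6 and Itsn1 were called lower in Mx, and Epha1, Crct1, Id1, Rpl22, Ndufb2 and Avpi1 higher. Gpx4 differed from the rest by 0.13 with both arrays, by -0.64 without replicate 1 (adjusted p = 0.0307) and by 0.90 without replicate 2 (adjusted p = 0.00453), so its direction hung on the replicate. Ndufb2 and Atp5md did not pass the test without replicate 1 (adjusted p = 0.177 and 0.22). Without replicate 1 Pou3f1 stood at 1.04 (adjusted p = 0.00789) and Rgs2 at -1.01 (adjusted p = 0.0113), and without replicate 2 Purb stood at -0.81 (adjusted p = 0.0277), though none of these 3 differed by the test with both arrays.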

How the data were processed

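Expression was measured on 10 Affymetrix MOE430A arrays, 2 for each of 5 sorted populations, after 1 round of RNA amplification. The deposited values are linear intensities, produced by the authors with MAS 5.0 and brought on each array to a target of 500. Over all probe-sets the trimmed mean (2% off each end) was 162 to 196, although the methods name all probe-sets as the basis of the scaling, and what it rested on was not tested. Detection calls and raw images were not used. The precision is limited by the number of arrays.

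After removal of 64 control probe-sets 22626 remained. The platform annotation gave 1 gene for 20380 (symbols updated through RefSeq for 20351), several for 691 and none for 1555, in all 12393 genes. A probe-set was tested where its signal was at least 200 on both arrays of at least 1 population. limma 3.58.1 (R 4.3.3) was fitted to log2(signal + 50) with the 5 population means as coefficients and without a block, with Benjamini-Hochberg adjustment within each comparison over all 8054 probe-sets. With 2 arrays a group, adjusted p-values rest on a spread pooled over populations and probe-sets (median residual SD 0.208, 5 residual and 7.46 prior degrees of freedom). The fit was tested on simulated data, with independent noise and the same spread of a probe-set on all arrays. That setting lacks the wider spread between the Mx replicates, so it cannot speak to its effect. A gene was represented by its brightest probe-set, and list counts were taken over all members on the array, with those not tested counted as not called. Python 3.11.15, numpy 2.4.6, pandas 2.3.3 and matplotlib 3.10.9 were used.

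The members, the 36 gene lists and the tests were chosen with earlier results of these data known. Genes were named by rule: the 20 with the widest margin in the highest and in the lowest set, the 10 called genes furthest from the rest in each direction, the members that differed most in each list (at most 4), the matrix transcription factors and marker genes, and the 8 tested genes with the widest Mx replicate difference in each direction. Alternatives were another pseudocount, signal bound, scaling, block or spread, and each array left out in turn. The fluidics station as a block and the arrays of one chip lot were added after the data were seen. Both Mx arrays came from one chip lot, with the first array of each other population, and from different fluidics stations. Samples with the same replicate number were not treated as pairs in the main fit. The correlation of replicate differences with those of Mx was 0.340 for ORS, 0.196 for Mc, 0.059 for DF and 0.010 for DP. Between the other populations it ran from -0.046 (DP and Mc) to 0.275 (DF and DP). A pairing of Mx with ORS alone was not modelled, and its part in the adjusted p-values of Mx against ORS was not tested.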

Additional observations from a re-analysis of the deposited data

How the results depend on the processing

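Of 3480 values of 174 named and tested genes under the alternatives, 3420 kept their direction and their side of an adjusted p of 0.05. Of the others 29 fell short of it, 13 passed it and 18 had the other sign. The 2-fold size of a call was not counted here, so a gene could lose its call and still be among the 3420. Without Mx replicate 1 Gpx4 went from 0.13 to -0.64 (adjusted p = 0.0307) and Plpp3 from -0.66 to 0.03 (adjusted p = 0.914), and without Mx replicate 2 they were at 0.90 and -1.34. The other 16 changes of sign were between values that did not pass the test. Without Mx replicate 1 and without Mx replicate 2, Krt15 was at 0.31 and -0.44, Trps1 at 0.53 and -0.68, Purb at 0.52 and -0.81, Pou3f1 at 1.04 and -0.31, Rgs2 at -1.01 and 0.33, and Xist at 1.00 and -4.09. Krt15 (-0.07) was also at 0.36 with a pseudocount of 16, 0.16 after quantile normalization, 0.05 rescaled, 0.10 with chip lot as a block, 0.10 on one lot and 0.03 without DF replicate 2. Trps1 (-0.07) was at 0.01 after quantile normalization and 0.04 rescaled, and Purb (-0.14) at 0.03 with chip lot as a block and on one lot. With each array left out in turn, the probe-sets higher in Mx ran from 422 to 752 and the lower from 1091 to 1508, the highest of 5 from 79 to 183, the lowest from 118 to 247, and list members called higher, summed over lists, from 84 to 135 against 88. The upper ends of these counts were those without Mx replicate 2. On the 6 arrays of one chip lot there were 54 highest probe-sets, 52 of them among the 92, and 80 lowest. A pseudocount of 16 gave 279 lowest probe-sets and 394 probe-sets 2-fold apart between the Mx replicates, and quantile normalization 89 of the latter. With the replicate number as a block (replicate block) there were 448 higher, 1232 lower, 93 highest and 170 lowest probe-sets. Of the named genes only Tfap2a then changed its side of an adjusted p of 0.05 (0.48, adjusted p = 0.0477). Rescaling to one trimmed mean gave 594 higher and 1093 lower, quantile normalization 500 and 955. The causes were not tested. A scan-session block was not run, so any part of scan sessions was not tested. Probe-sets under 200 everywhere, among them most keratin-associated protein genes, are limited by signal.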
